A study of Mus musculus with 12 samples.

Results

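Interferon response genes are genes that cells turn on when an interferon binds its receptor. The set described here had 36 genes, chosen by name as textbook members of the response, and all probes with their symbols that were detected on at least 2 of 12 arrays were taken. A probe was called detected where the scanner software's detection p-value, a comparison with negative control beads, was under 0.05. Of the 36 genes, 34 were named on the array, by 55 probes, and 26 had at least 1 detected probe (40 probes), out of 10144 genes measured in the series. Ifi44 and Dtx3l were not named on the array, and Ifih1, Ifit1, Mx1, Oas1a, Oas2, Oasl1, Parp9 and Xaf1 had no probe that passed.

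RNA of 12 mouse cell samples was measured on single-colour Illumina bead arrays, 2 per group in 6 groups. Peripheral neural stem cells (pNSCs) grow like brain neural stem cells but were derived from peripheral organs. A limb line of embryonic origin (elpNSCs) and a lung line of adult origin (alpNSCs) had an early and a late group each. The Control-NSC group was brain neural stem cells, the Fibroblasts group was the reference outside the neural lineage, and every sample was labelled with the same strain mixture of C57BL/6, CD1 and C3H. The labels name no interferon, virus or other treatment, no age beyond embryonic and adult and no passage behind early and late. They also do not say whether cells had been exposed to low pH. The study calls its low-pH limb and lung lines ellNSCs and allNSCs and describes array profiles of them beside control cells and fibroblasts, and whether the arrays labelled pNSC here are those lines is not settled by the labels. Per the methods, pNSC lines grew out of single picked clusters in neural stem cell medium with EGF and bFGF, and the brain cells came from whole brain. The medium of the fibroblasts is not given in the sources used here for these arrays. The study speaks of biological replicates, but what separated the 2 samples of a group (cultures, clones or animals) is not given, and the p-values cover the spread between these samples alone.

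Type I interferons bind the receptor of Ifnar1 and Ifnar2, and the kinases Jak1 and Tyk2 are then activated. A complex that holds Stat2 and Irf9 binds a promoter element called ISRE, while interferon gamma acts at another element called GAS. Many of the induced proteins restrict viruses and intracellular microbes, and others, such as Usp18 and the Socs proteins, dampen the signal. Stem cells are known to keep a part of these genes on without added interferon.

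Promoters of the set were searched for the letters of both elements. The ISRE core was searched as GAAA, any 2 bases, GAAA, and the GAS as TTC, any 3 bases, GAA, on both strands, from 250 bases before to 50 bases after each RefSeq start (GRCm38.p6). Of 29 set genes with a promoter entry, 15 held the ISRE letters (51.7%), against 3.99% of all genes with an entry. The GAS letters were found in 9 of 29 (31.0%), against 9.55% of all genes, and in Ifitm3 and Bst2 they shared bases with an ISRE match. Oas2, Parp9, Usp18, Parp14, Mx2, Mx1 and Dhx58 had no entry. Of the genes with an entry, 8 of 11 that differed among the neural groups held the ISRE letters, and 4 of 11 that were measured and not called. The promoters of 5 genes whose levels differed among the neural groups are shown, with that of Isg15, which did not, for comparison. Only promoters with an ISRE match are shown. Ifit2, Ifi35 and Samhd1, which also differed, held the GAS letters but no ISRE match. Each has 130 bases, with ISRE matches of either strand in capitals, and overlapping matches run together. For Ifitm3 the stretch runs from 100 bases before the start to 30 after it, and for the others it ends just before the start.
Ifitm3: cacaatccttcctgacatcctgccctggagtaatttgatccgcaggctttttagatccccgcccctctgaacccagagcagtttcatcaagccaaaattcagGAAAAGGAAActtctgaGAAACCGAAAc
Ifitm2: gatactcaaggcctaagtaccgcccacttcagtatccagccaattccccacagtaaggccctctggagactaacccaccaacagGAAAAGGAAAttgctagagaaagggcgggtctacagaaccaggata
Bst2: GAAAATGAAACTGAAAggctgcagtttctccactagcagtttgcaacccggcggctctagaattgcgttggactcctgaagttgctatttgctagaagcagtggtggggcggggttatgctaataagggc
Gbp3: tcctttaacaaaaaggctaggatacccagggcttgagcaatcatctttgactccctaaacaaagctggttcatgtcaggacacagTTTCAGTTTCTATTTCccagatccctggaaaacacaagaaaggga
Rsad2: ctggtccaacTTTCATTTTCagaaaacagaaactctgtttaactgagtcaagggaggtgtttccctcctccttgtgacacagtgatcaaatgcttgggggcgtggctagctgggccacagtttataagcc
Isg15: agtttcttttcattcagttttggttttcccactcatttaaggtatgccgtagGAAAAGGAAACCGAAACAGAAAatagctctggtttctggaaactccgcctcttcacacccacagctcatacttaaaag
In GRCm38.p6 these lie, in the same order, at chr7:141010715-141010844, chr7:140955962-140956091, chr8:71537473-71537602, chr3:142559914-142560043, chr12:26456453-26456582 and chr4:156200819-156200948, with Gbp3 on the plus strand and the others on the minus strand. Both Ifitm3 matches lay after the start, where the matches of the other 5 lay before it. A match is a description of letters, not of binding.

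Each array detected 11801 to 12836 of 25697 probes, and the 2 arrays of a group correlated at r = 0.990 to 0.996. Levels below are normalized log2 intensities of a gene's brightest kept probe, with mean ± SD over n = 2 arrays, and the lowest level of a detected probe was 4.63 to 4.80 per array. All 9 neural stem cell markers tested were detected on both arrays of every neural group. In Fibroblasts Sox2, Olig2, Fabp7, Bcan and Ncan were undetected, Nr2e1 was on 1 array, and Nes, Slc1a3 and Vim were on both. Of the 9 markers, 7 to 8 were higher in each neural group than in Fibroblasts. Vim was lower (10.92 to 12.36 in the neural group means against 12.89). Of 10 fibroblast markers all were detected on both Fibroblasts arrays, while Col1a1, Col1a2, Col3a1, Dcn, Lum, Mgp and Pdgfrb were detected on no neural array. Of the fibroblast list, Thy1 and Acta2 were detected on both arrays of elpNSCs-early and Control-NSC, and Acta2 on both of elpNSCs-late.

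The fibroblasts had the highest mean of the 6 groups in 23 of the 26 genes. Of the 26 genes measured, all were detected on both Fibroblasts arrays, 10 on each of the 10 neural arrays, and 6 on no neural array. The 6 were Oasl2, a relative of the oligoadenylate synthetases, the transcription factor Irf7, the dynamin-like GTPase Mx2, the GTPase Ifi47, the RNA sensor Dhx58 and the membrane protein Ifitm1. These 6 passed the filter only through the Fibroblasts arrays, so they had to differ there and support nothing. The other 20 genes were detected on at least 2 neural arrays, as were 9367 of all genes. Of these 20, 18 were lower and 1 higher in Control-NSC than in Fibroblasts, where 22.7% of the 9367 were lower and 37.5% higher. In the pNSC groups 16 to 17 were lower and 0 to 1 higher, where 20.5 to 22.5% were lower and 36.7 to 39.1% higher.

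**Figure D1:**
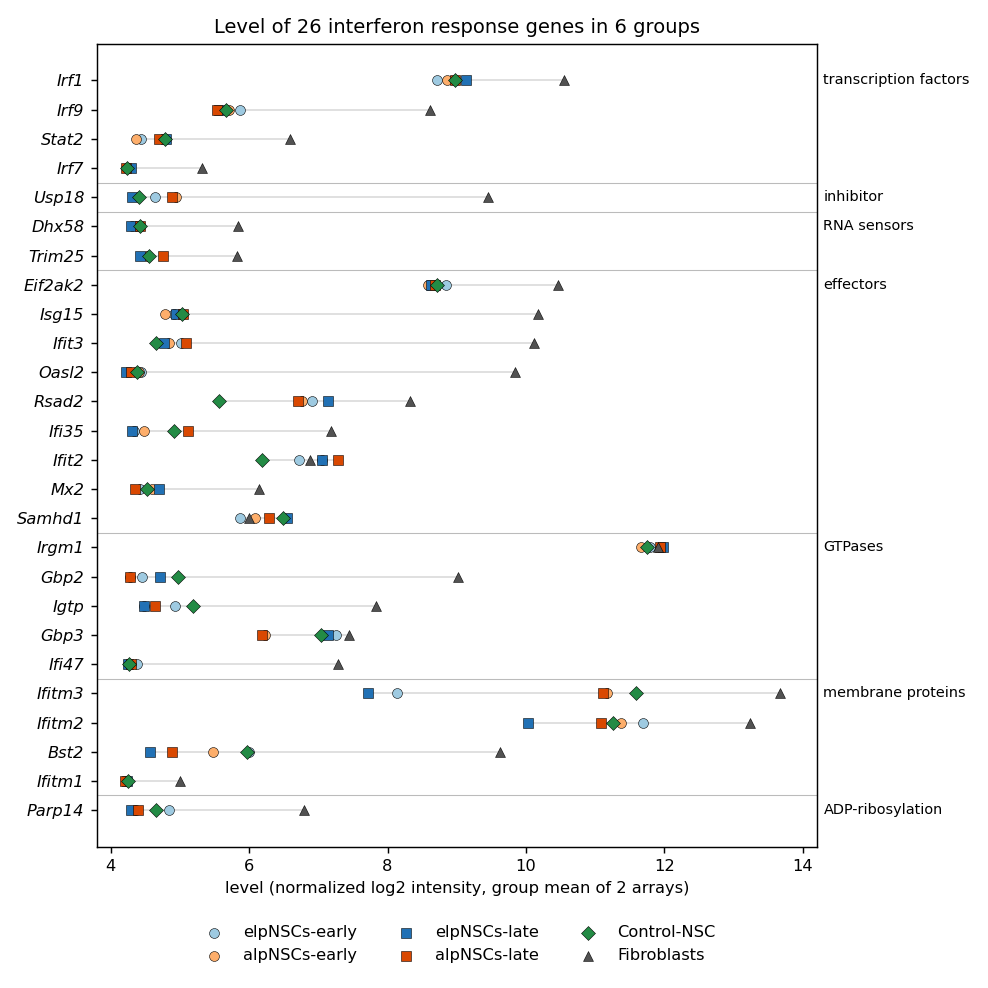
Mean level (normalized log2 intensity, 2 arrays) of each of the 26 measured genes in the 6 groups, ordered by the role of the protein. The Fibroblasts triangle lies to the right of all neural groups for 23 genes, and Ifitm3 is split between the limb line at 7.72 to 8.14 and the other neural groups at 11.12 to 11.59.

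Against Fibroblasts, Control-NSC had 25 of 26 genes called (61.9% of all genes), 24 lower (27.2%) and 1 higher (34.7%), by limma's moderated test at a Benjamini-Hochberg adjusted p under 0.05. Without the 6 genes kept only through the Fibroblasts arrays it was 19 of 20 (60.3% of the 9367 genes). Of the 20 genes also detected on neural arrays, the effectors Ifit3 and Isg15 had the largest fitted differences. Isg15, a ubiquitin-like protein that is attached to other proteins, had 10.29 and 10.05 in Fibroblasts and 5.14 and 4.91 in Control-NSC, 35.3-fold lower (log2 difference -5.14 ± 0.14 SE, adjusted p = 9.82e-12). Ifit3, a tetratricopeptide protein that acts with Ifit1 on viral RNA, had 10.09 and 10.14 against 4.89 and 4.41, of which 1 was detected, 44.1-fold lower (adjusted p = 6.92e-11). The other kept probes of Ifit3 were dimmer, with 7.64 and 7.96 in Fibroblasts against 4.36 and 4.21 in Control-NSC, and undetected on every neural array. The arrays of both groups did not overlap for either gene. The size of these folds rested on the background correction: the log2 difference of Isg15 ran from -3.41 without it to -6.12 with the authors' deposited values, and that of Ifit3 from -3.46 to -7.04, called in each. "At least" marks a fold in which the dimmer group had no detected array, its value being raised to the lowest detected level.

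Transcription factors of the set were also lower. Irf9, the DNA-binding subunit of the ISRE complex, was 7.73-fold lower in Control-NSC (5.67 ± 0.16 against 8.62 ± 0.023), Stat2 3.50-fold lower and Irf1, a factor that also binds ISRE-like sites, 3.0-fold lower (8.97 ± 0.11 against 10.55 ± 0.0070). Usp18, which removes Isg15 from proteins and blocks the type I receptor, was at least 26-fold lower, with a fitted log2 difference from -2.94 to -7.12 under the same pair of settings. In RNA from whole cultures, fewer cells with a transcript and less of it per cell cannot be told apart. Samhd1, an enzyme that degrades deoxynucleotides, was the 1 gene higher in Control-NSC (6.50 ± 0.15 against 5.99 ± 0.10, 1.42-fold, adjusted p = 4.72e-03), and without the second Control-NSC array it did not pass. A second kept probe of Samhd1 had 4.62 in Control-NSC and 4.52 in Fibroblasts, where it was undetected. Irgm1, a regulatory GTPase of the immunity-related family, was not called (log2 difference -0.17, 95% interval -0.46 to 0.12), but its 3 kept probes disagreed: the brightest was 11.74 in Control-NSC and 11.91 in Fibroblasts, and the others were 6.68 and 8.34, and 4.53 and 5.13.

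Of the limb line, elpNSCs-early had 22 of 26 genes called against Fibroblasts (59.1% of all genes), all lower (25.2%), and elpNSCs-late 24 (63%), 23 lower (27%) and Samhd1 higher (36.1%). Both lung groups had 23 called, all lower, early beside 60.6% of all genes called and 25.9% lower and late beside 62.1% and 26.5%. These 5 comparisons share the Fibroblasts arrays, and their counts include the 6 genes that passed the filter only through those arrays. Of the other 20, 16 (early) and 18 (late) were called in limb and 17 in each lung group. Of the 9367 genes, 57.3 to 61.6% were. The median log2 difference of the 20 genes detected on neural arrays was -2.11 in Control-NSC, -2.05 (early) and -2.69 (late) in limb and -2.33 and -2.11 in lung, beside 0.17 to 0.19 over the 9367 genes. In Control-NSC it was -1.50 without background correction and -3.02 with the deposited log2 values. Isg15 was 38.1-fold (early) and 37.5-fold (late) lower in limb and 42.0-fold and 35.0-fold lower in lung. Ifit2, a partner of Ifit3 in RNA binding, was not called in any of the 4 (log2 differences -0.15 to 0.41) although it was 1.61-fold lower in Control-NSC, which it was not without the second Fibroblasts array. Ifitm3, which blocks viruses from entering through endosomes, was 46.4-fold (early) and 62.3-fold (late) lower in limb and 5.66-fold and 5.89-fold lower in lung.

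Markers of other cells also differed between Fibroblasts and the neural groups. The 10 fibroblast markers summed to an intensity of 51351 to 53357 there and 205 to 808 on the neural arrays. Of the macrophage list Aif1, Lyz2 and Cd14 were detected on both Fibroblasts arrays and on no pNSC array, with a summed intensity of 685 to 779 against 59.3 to 77.9 on the neural arrays. Of 5 endothelium markers on the array only 2 passed the detection filter, Tek and Cd34. Also detected on both Fibroblasts arrays, they summed to 569 to 700 against 43.7 to 61.5, with Tek detected in alpNSCs-early too. The 3 macrophage markers and 8 of the 10 fibroblast markers were detected on under 2 neural arrays. They passed the filter only with the Fibroblasts arrays, so their direction was set by it. The other 5 macrophage markers on the array did not pass the detection filter, and the part of these cells in the result was not tested.

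Among the 5 neural groups, 12 of 26 genes differed by limma's moderated F test at an adjusted p under 0.05 (34.5% of all genes did). Of the 20 genes detected on at least 2 neural arrays it was 12, where 37.2% of all 9367 such genes did. They were Ifitm3, Ifitm2, Rsad2, Bst2, Ifit2, Gbp3, Ifi35, Igtp, Gbp2, Samhd1, Usp18 and Stat2, by the range of their group means, which ran from 14.7-fold to 1.35-fold. Isg15, Ifit3 and Oasl2 were not among them.

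**Figure D2:**
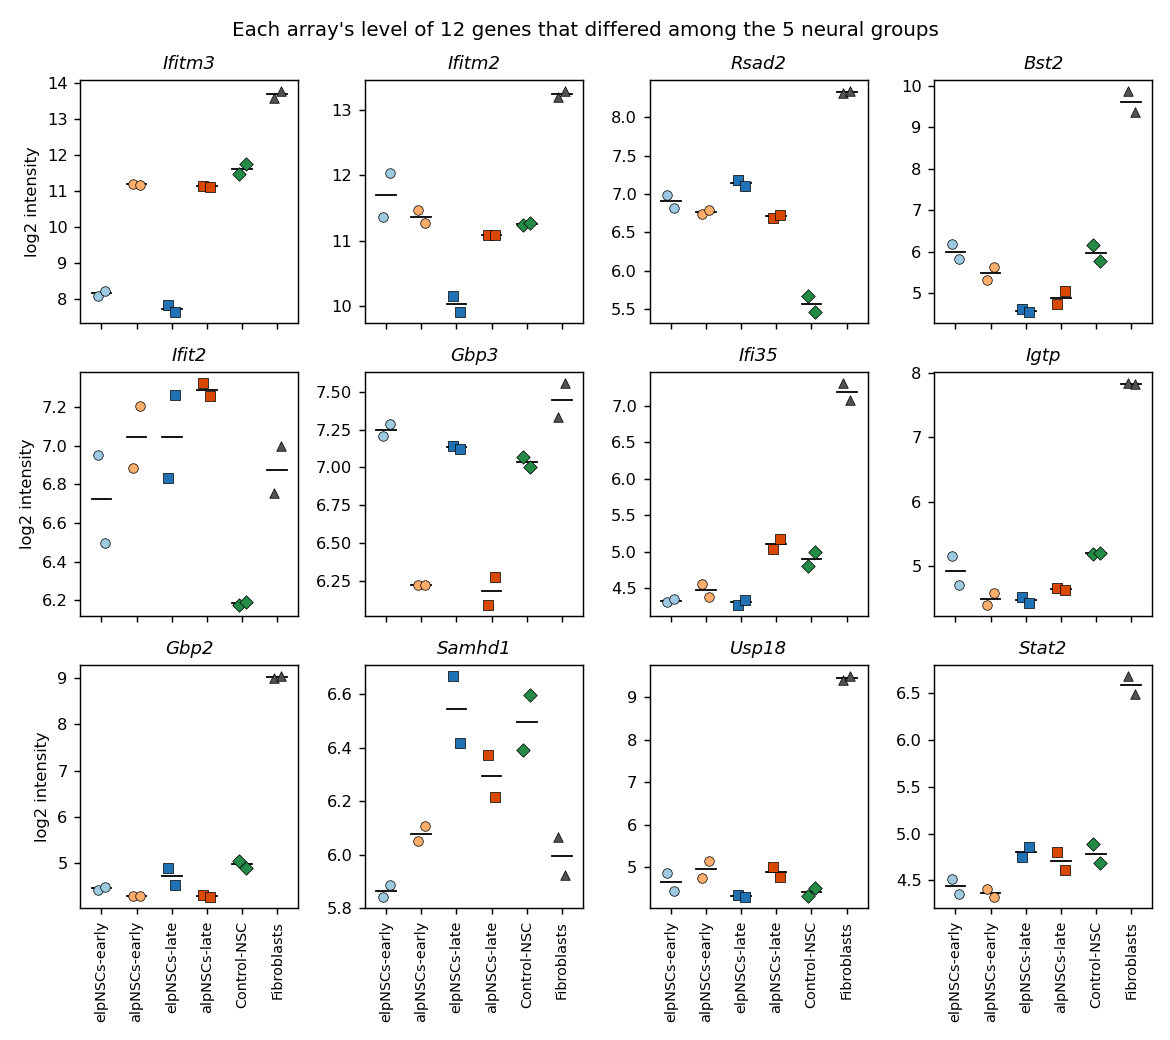
Level (normalized log2 intensity) on each of the 12 arrays of the 12 genes that differed among the neural groups, 1 panel per gene with its own vertical scale, symbols for arrays and bars for group means. Ifitm3 reached at most 8.20 on the 4 limb arrays and at least 11.10 on the other 6 neural arrays, and Gbp3 reached at most 6.28 on the 4 lung arrays.

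The membrane proteins Ifitm3 and Ifitm2 had the widest ranges of group means, while their relative Ifitm1 was undetected on neural arrays. Ifitm3 had 8.08 and 8.20 in elpNSCs-early and 7.82 and 7.62 in elpNSCs-late. It had 11.20 and 11.16 in alpNSCs-early, 11.14 and 11.10 in alpNSCs-late and 11.45 and 11.73 in Control-NSC. All limb arrays lay below all lung and brain arrays. The lung line was 8.20-fold above the limb line early (log2 difference 3.04 ± 0.13, adjusted p = 1.19e-08) and 10.6-fold late (3.40 ± 0.13, adjusted p = 3.33e-09), and the limb line was 10.9-fold and 14.7-fold below Control-NSC. These 4 calls held in every alternative processing run and without any single array. Smaller differences of Ifitm3 also passed: 1.33-fold (early) and 1.39-fold (late) lower in the lung line than in Control-NSC and 1.34-fold lower in elpNSCs-late than in elpNSCs-early, but these 3 held in 6, 8 and 7 of 10 alternatives, with adjusted p up to 0.60, and in 5, 9 and 7 of 12 fits without 1 array. The summed intensity of the fibroblast markers was 567 to 594 in elpNSCs-early, 763 to 808 in elpNSCs-late, 205 to 221 in the lung groups and 739 to 788 in Control-NSC. On the neural arrays only Thy1 and Acta2 of that list were detected on at least 2, and the part of these markers in the Ifitm3 differences was not tested.

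Ifitm2, a close relative of Ifitm3, followed another pattern. It had 11.36 and 12.04 in elpNSCs-early, 10.15 and 9.91 in elpNSCs-late, 11.47 and 11.27 in alpNSCs-early, 11.09 and 11.08 in alpNSCs-late and 11.24 and 11.27 in Control-NSC. Only elpNSCs-late stood apart. It fell 3.17-fold from early to late in the limb line (log2 difference -1.66 ± 0.19, adjusted p = 6.26e-05) and differed by -0.28 in the lung line, which was not called. In elpNSCs-late it was also 2.34-fold below Control-NSC (adjusted p = 6.01e-04) and 2.08-fold below alpNSCs-late (adjusted p = 2.38e-03). The difference between the lines in the late-early change was 1.38 ± 0.26 (log2, 95% interval 0.81 to 1.96, adjusted p = 9.39e-03), the 1 of 26 genes called in that test (5.66% of all genes were, 3.18% higher and 2.47% lower), and it held in every alternative processing run and without any single array. The Ifitm genes are close copies of each other, and cross-hybridization between them was not tested.

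Bst2, tetherin, holds budding virus particles at the cell surface. It had 6.19 and 5.81 in elpNSCs-early, 5.31 and 5.64 in alpNSCs-early and 6.17 and 5.77 in Control-NSC, and was undetected in elpNSCs-late (4.61 and 4.54) and detected on 1 of 2 arrays in alpNSCs-late (4.72 and 5.04). The late groups did not overlap the early ones. It was at least 2.43-fold lower in elpNSCs-late than in elpNSCs-early (adjusted p = 4.13e-04, fitted log2 difference from -0.47 without background correction to -2.64 with the deposited values), at least 2.38-fold lower than in Control-NSC, and 2.12-fold lower in alpNSCs-late than in Control-NSC (adjusted p = 3.70e-03), a call that was lost without background correction and without the first Control-NSC array. The lung line's late-early difference (-0.59) was not called, and its difference from that of the limb line was 0.84 (95% interval 0.20 to 1.48, adjusted p = 0.14).

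Among effectors, Rsad2 (viperin), an enzyme that makes a chain-terminating nucleotide against viral polymerases, was higher in all 4 pNSC groups than in brain cells. It had 5.67 and 5.46 in Control-NSC, 6.99 and 6.82 in elpNSCs-early, 6.74 and 6.80 in alpNSCs-early, 7.19 and 7.10 in elpNSCs-late and 6.69 and 6.73 in alpNSCs-late. Each pNSC array was above both Control-NSC arrays. The group means were 2.52-fold (early) and 2.99-fold (late) higher in limb (adjusted p = 4.88e-06 and 1.21e-06) and 2.30-fold and 2.21-fold higher in lung (adjusted p = 1.23e-05 and 2.50e-05), and these calls held in every alternative and without any array. The log2 difference in late limb, 1.58, was 0.78 without background correction. These comparisons share the Control-NSC arrays. Rsad2 was also 1.35-fold lower in alpNSCs-late than in elpNSCs-late, a call that held in 7 of 10 alternatives and in 6 of 12 fits without 1 array.

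Ifit2 was also higher in pNSCs than in brain cells. It had 6.18 and 6.19 in Control-NSC, 6.95 and 6.50 in elpNSCs-early, 6.88 and 7.21 in alpNSCs-early, 6.84 and 7.26 in elpNSCs-late and 7.32 and 7.26 in alpNSCs-late. The 8 pNSC arrays lay above both Control-NSC arrays. The difference was 1.82-fold (early) and 2.15-fold (late) in lung (adjusted p = 5.29e-03 and 1.27e-03) and 1.82-fold in late limb (adjusted p = 6.43e-03). The early lung call was lost without its second array, and the late limb call without its second. In elpNSCs-early it was 1.46-fold (adjusted p = 0.0475), which held in 3 of 10 alternatives and 5 of 12 fits without 1 array. A second kept probe of Ifit2 gave 5.99 in Control-NSC, 6.54 and 7.09 in early and late limb and 6.85 and 7.40 in early and late lung.

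Ifi35, a leucine-zipper protein that binds other induced proteins, was detected only in alpNSCs-late (5.04 and 5.17) and Control-NSC (4.81 and 5.0) among the neural groups. It was undetected in elpNSCs-early (4.31 and 4.36), elpNSCs-late (4.28 and 4.34) and alpNSCs-early (4.57 and 4.39). In elpNSCs-early, alpNSCs-early and elpNSCs-late it was called lower than in Control-NSC, which held in 9, 6 and 8 of 10 alternatives. The late lung group was at least 1.29-fold above the early one (adjusted p = 0.0127) and at least 1.31-fold above elpNSCs-late (adjusted p = 1.22e-03), of which the second held in every alternative. The first was lost without background correction, with a larger background offset and without the second alpNSCs-early or either alpNSCs-late array. Samhd1 had 5.84 and 5.89 in elpNSCs-early, 6.05 and 6.11 in alpNSCs-early, 6.67 and 6.42 in elpNSCs-late, 6.37 and 6.21 in alpNSCs-late and 6.39 and 6.60 in Control-NSC. A second kept probe, detected on 2 of 12 arrays, had 4.53 and 4.54 in early and late limb, 4.36 and 4.63 in early and late lung and 4.62 in Control-NSC. By the brightest probe, the early groups of Samhd1 lay below its late groups and the brain cells. It rose 1.60-fold from elpNSCs-early to elpNSCs-late (adjusted p = 2.54e-03). In elpNSCs-early its level was 1.55-fold lower than in Control-NSC (adjusted p = 3.27e-03). In alpNSCs-early it was 1.34-fold below Control-NSC, a call that held in 6 of 10 alternatives and in 4 of 12 fits without 1 array.

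Guanylate-binding and immunity-related GTPases attack the vacuoles of intracellular microbes. Of Gbp2, Gbp3, Igtp, Irgm1 and Ifi47, 3 were called in the F test, each lower in some pNSC groups than in brain cells, and of these only Gbp3 was called between the lines. Gbp3, a guanylate-binding protein, had 6.22 and 6.22 in alpNSCs-early and 6.09 and 6.28 in alpNSCs-late, below 7.21 and 7.29 in elpNSCs-early, 7.14 and 7.12 in elpNSCs-late and 7.07 and 7.00 in Control-NSC. It was 2.04-fold (early) and 1.93-fold (late) lower in the lung than in the limb line (adjusted p = 8.44e-05 and 1.75e-04), and 1.76-fold and 1.80-fold lower than in Control-NSC. All 4 calls held in every alternative and without any array, and the second kept probe had 5.63 and 5.46 in the lung groups and 6.70 to 6.85 in the others. Gbp3 had the limb line high and the lung line low, where Ifitm3 had the reverse.

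Gbp2 was detected on both arrays only in Control-NSC (5.04 and 4.89) of the neural groups. It had 4.41 and 4.49 in elpNSCs-early, 4.28 and 4.28 in alpNSCs-early, 4.90 and 4.52 in elpNSCs-late, where 1 array was detected, and 4.30 and 4.26 in alpNSCs-late. It was at least 1.21-fold, 1.17-fold and 1.18-fold lower than in Control-NSC in elpNSCs-early, alpNSCs-early and alpNSCs-late (adjusted p = 0.0127, 2.72e-03 and 3.66e-03). The first of these was lost without background correction and without the first elpNSCs-early or the first Control-NSC array. Igtp, an immunity-related GTPase also called Irgm3, had 5.18 and 5.21 in Control-NSC, 5.15 and 4.70 in elpNSCs-early and 4.39 to 4.66 on the other 6 pNSC arrays, none of which was detected. It was at least 1.37-fold, 1.39-fold and 1.38-fold lower than in Control-NSC in alpNSCs-early, elpNSCs-late and alpNSCs-late (adjusted p = 3.85e-03, 4.34e-03 and 0.0244), of which the last held in 7 of 10 alternatives and was lost without any 1 of the 4 arrays compared. Its fall from elpNSCs-early to elpNSCs-late (at least 1.15-fold) held in 4 of 10 alternatives and 3 of 12 fits without 1 array. The F test of Igtp was lost without background correction. Irgm1 was not called among the neural groups by the F test (group means 11.66 to 11.98, adjusted p = 0.27).

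The remaining 2 genes of the 12 rested on levels near background. Usp18 was detected on 4 of 10 neural arrays, with 4.85 and 4.43 in elpNSCs-early, 4.75 and 5.14 in alpNSCs-early, 4.34 and 4.29 in elpNSCs-late, 5.0 and 4.78 in alpNSCs-late and 4.32 and 4.50 in Control-NSC. The F test gave an adjusted p of 0.030, which held in 6 of 10 alternatives and 5 of 12 fits without 1 array. Stat2 was detected on 3 of 10, with 4.52 and 4.36 in elpNSCs-early, 4.41 and 4.32 in alpNSCs-early, 4.75 and 4.85 in elpNSCs-late, 4.80 and 4.61 in alpNSCs-late and 4.88 and 4.68 in Control-NSC. Its adjusted p of 0.043 held in 4 of 10 alternatives and in 1 of 12 fits without 1 array. Of the other transcription factors, Irf1 spanned 8.71 to 9.13 in the neural group means (adjusted p = 0.084), Irf9 5.54 to 5.87 (adjusted p = 0.19), and Irf7 was undetected. Isg15 spanned 4.78 to 5.04 (adjusted p = 0.53), Ifit3 4.65 to 5.09 (adjusted p = 0.31) and Eif2ak2, the RNA-activated kinase PKR, 8.59 to 8.85 (adjusted p = 0.42). Trim25, a ubiquitin ligase that acts on the RNA sensor RIG-I, spanned 4.42 to 4.76 and was not called (adjusted p = 0.26).

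Counted by comparison, the pNSC groups had 2 to 3 genes above and 4 to 7 below Control-NSC. In early limb 6 were called (26.1% of all genes), 2 higher (13.5%) and 4 lower (12.5%), and in late limb 7 (15.3%), 2 higher (7.52%) and 5 lower (7.79%). In early lung 10 were called (18.2%), 3 higher (9.02%) and 7 lower (9.14%), and in late lung 7 (12.4%), 2 higher (5.88%) and 5 lower (6.53%). Ifit2 and Rsad2 were the higher genes of each, with Usp18 in alpNSCs-early. The Usp18 call held in 2 of 10 alternatives. Its other kept probes were undetected on every neural array (4.50 in alpNSCs-early against 4.30 in Control-NSC, and 4.32 against 4.27). Ifitm3 was the 1 gene lower in all 4 groups. The median log2 difference of the 26 genes from Control-NSC was 0.016 (early) and -0.084 (late) in limb and -0.068 and -0.038 in lung, beside 0.0055 to 0.013 over all genes. The count in early lung fell to 4 without the second alpNSCs-early array, to 5 without the second Control-NSC array, and to 6 without the first alpNSCs-early array or any 1 of the alpNSCs-late and Fibroblasts arrays.

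From early to late, the limb line had 7 genes called (23.8% of all genes), 2 higher (11.7%), Samhd1 and Irf1, and 5 lower (12.1%), Ifitm2, Bst2, Parp14, Igtp and Ifitm3. Irf1 rose 1.34-fold (8.73 and 8.69 to 9.08 and 9.18, adjusted p = 0.0189), and its 3 other kept probes were also higher late (7.00 against 6.75, 5.22 against 4.69 and 5.06 against 4.94). The limb count fell to 4 without the first elpNSCs-early or the second elpNSCs-late array. The Irf1 call was lost in a fit on the limb arrays alone and without the second array of either limb group. Parp14, an ADP-ribosyltransferase, was detected in elpNSCs-early (4.88 and 4.80) and not in elpNSCs-late (4.35 and 4.23), at least 1.09-fold lower (adjusted p = 0.0311), which held in 6 of 10 alternatives and was lost without any 1 of the 4 limb arrays. The lung line had 1 gene called (4.83%), Ifi35, which was higher (2.11%), and 0 lower (2.72%) by limma, with 3 genes at an unadjusted p under 0.05. Early, 2 genes differed between the lines (12.5%), Ifitm3 higher in lung (5.84%) and Gbp3 lower (6.65%). Late, 6 differed (10.9%), of which 4 were higher in lung (5.29%), Ifitm3, Ifitm2, Ifi35 and Usp18, and 2 lower (5.61%), Gbp3 and Rsad2. The Usp18 call (at least 1.12-fold, adjusted p = 0.0475) held in 4 of 10 alternatives and 4 of 12 fits without 1 array.

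**Figure D3:**
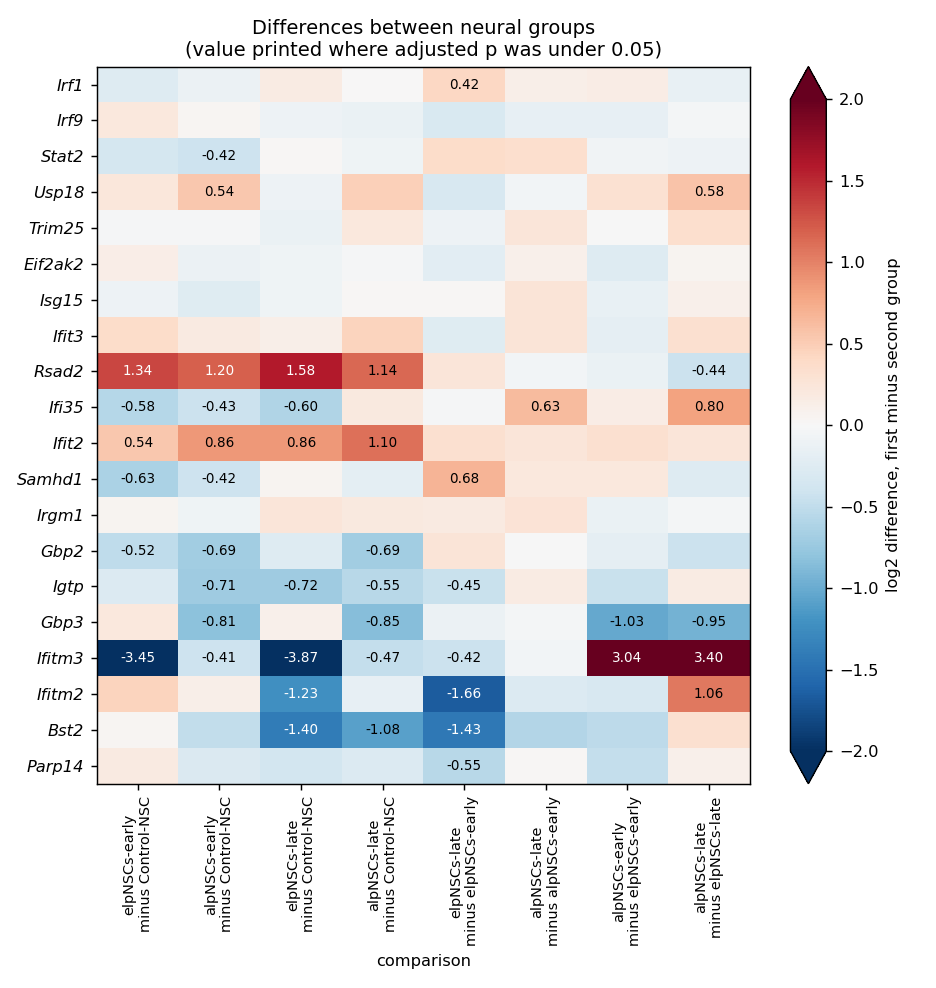
Log2 difference of the 20 genes detected on at least 2 neural arrays in the 8 comparisons between neural groups, with red for higher and blue for lower in the first-named group and values printed where the adjusted p was under 0.05 (colours end at 2 and -2). Rsad2 and Ifit2 are red in all 4 columns against Control-NSC, and Ifitm3 is red and Gbp3 blue in both lung against limb columns.

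Other genes of the pathway were taken from 7 lists. Of interferon ligands 2 of 9 listed genes passed the detection filter, Ifna1 and Ifnz, at 4.55 to 4.74 and 4.53 to 4.69 in the neural group means, and neither was called in limma's F test or had an unadjusted p under 0.05. Of receptors 1 of 5 tested was called, of JAK-STAT components (Jak1, Jak2, Tyk2 and Stat3) 0 of 4, with 2 at an unadjusted p under 0.05, of other interferon regulatory factors 0 of 2, with 0 at an unadjusted p under 0.05, of nucleic acid sensing 2 of 9, of inhibitors 2 of 6 and of other induced genes 10 of 25, beside 34.5% of all genes. Of the 25 other induced genes, 11 were detected on under 2 neural arrays and passed the filter only with the Fibroblasts arrays, so their direction was set by it. Of the other 14, 12 to 13 were lower in each neural group, where 20.5 to 22.7% of the 9367 genes were. Of the JAK-STAT components 3 of 4 were lower in Control-NSC than in Fibroblasts and 2 of 4 in each pNSC group, and of receptors 3 of 5 in each. Of the other regulatory factors, Irf2 and Irf3, 0 of 2 were called against Fibroblasts by limma, with 0 at an unadjusted p under 0.05.

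Socs3, which is induced by cytokines acting through Stat3 and blocks their receptors, had the widest neural range of these lists. It had 9.08 and 8.97 in elpNSCs-early, 9.34 and 9.44 in alpNSCs-early, 7.54 and 7.57 in elpNSCs-late, 6.92 and 6.94 in alpNSCs-late, 6.36 and 6.43 in Control-NSC and 9.62 and 9.65 in Fibroblasts. The early groups were 6.19-fold and 7.98-fold above Control-NSC (adjusted p = 5.87e-09 and 1.72e-09), the late groups 2.24-fold and 1.45-fold. It fell 2.76-fold from early to late in the limb line and 5.50-fold in the lung line, and the lines differed in that fall (log2 difference -0.99, adjusted p = 2.27e-03). Cish, another inhibitor of cytokine receptors, fell 1.53-fold in the limb line (6.15 and 5.94 to 5.29 and 5.56, adjusted p = 4.14e-03).

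Of receptors, Il10rb, shared by interleukin-10 and interferon lambda, had 6.17 and 6.25 in elpNSCs-early, 6.41 and 6.32 in alpNSCs-early, 5.36 and 5.09 in elpNSCs-late, 5.71 and 5.69 in alpNSCs-late and 5.49 and 5.71 in Control-NSC. Both lines fell from early to late, 1.97-fold in limb (adjusted p = 2.09e-04) and 1.59-fold in lung (adjusted p = 0.0101). Tlr3, an endosomal sensor of double-stranded RNA, was 1.55-fold (early) and 2.35-fold (late) higher in the lung than in the limb line (6.64 and 6.58 against 6.02 and 5.94, then 6.90 and 6.68 against 5.49 and 5.62, adjusted p = 6.49e-03 and 3.41e-05). It was higher in every neural group than in Fibroblasts (4.65 and 4.38), by 3.56-fold in Control-NSC and 2.05-fold to 4.83-fold in the pNSC groups. Myd88, an adaptor of other Toll-like receptors, had 7.49 and 7.25 in elpNSCs-late and 8.15 to 8.55 on the other neural arrays.

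Of the other induced genes, Tor3a, an ATPase of the endoplasmic reticulum, was lower in every pNSC group than in Control-NSC (7.55 and 7.44). It had 6.43 and 6.41 in elpNSCs-early, 6.30 and 5.97 in alpNSCs-early, 6.06 and 6.21 in elpNSCs-late and 5.79 and 6.00 in alpNSCs-late, 2.11-fold to 3.02-fold lower with adjusted p from 4.56e-06 to 9.75e-05. Ly6e, a surface protein that restricts coronavirus entry, had 6.95 and 6.85, 7.16 and 6.99, 5.88 and 5.55, and 6.54 and 6.54 in the same order, and 6.38 and 6.36 in Control-NSC. It fell 2.28-fold in the limb line (adjusted p = 6.01e-05) and 1.45-fold in the lung line (adjusted p = 0.0381). Shisa5, a protein of the endoplasmic reticulum, was lowest in elpNSCs-late (7.86 and 7.93, against 8.51 to 9.09 on the other neural arrays), 1.71-fold below elpNSCs-early (adjusted p = 4.91e-04). Ifitm2, Bst2, Ly6e, Il10rb, Myd88, Shisa5, Tlr3 and Cish had their lowest mean of the 5 neural groups in elpNSCs-late. They were picked after their values were seen, so this pattern could follow from the choice. Of the set genes called in the F test, Ifitm3, Ifitm2, Bst2, Ifi35, Igtp and Usp18 had their lowest mean there. Bst2, Ifi35, Igtp and Usp18 were undetected in that group. Rsad2, Samhd1 and Stat2 had their highest mean there.

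**Figure D4:**
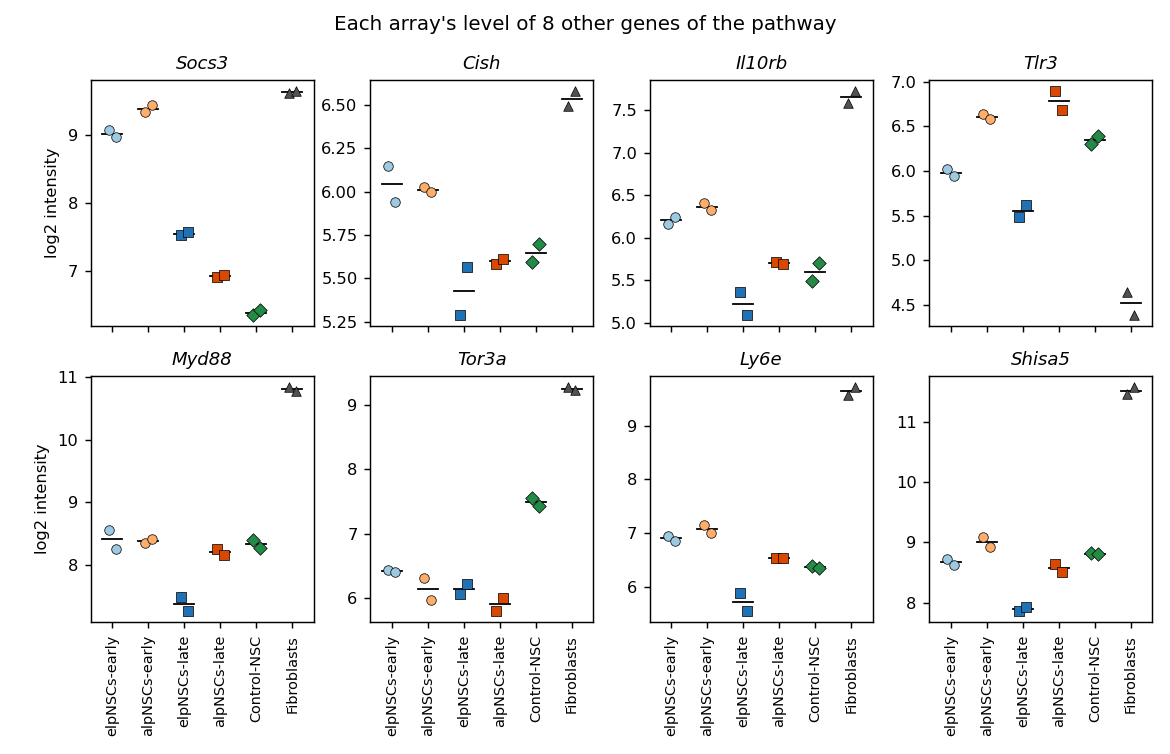
Level (normalized log2 intensity) on each of the 12 arrays of 8 genes outside the set that differed among the neural groups, 1 panel per gene with its own vertical scale, symbols for arrays and bars for group means. Socs3 steps down from 9.39 and 9.02 in the early groups to 7.56 and 6.93 in the late groups and 6.39 in Control-NSC, and Tor3a is highest of the neural groups in Control-NSC.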

How the data were processed

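Biotin-labelled copies of total RNA from 12 samples had been hybridized to MouseRef-8 arrays of Illumina. The deposited raw table holds intensity values mapped to genes by the authors with BeadStudio 3.2, and not normalized, beside deposited detection p-values. A second deposited table holds the authors' log2 values, made with lumi after RMA-type background correction, which served as an alternative (r = 0.985 to 0.986 with the main values over kept probes). The main values came from the raw intensities through neqc of limma 3.58.1 (R 4.3.3, negative controls inferred from detection p-values, offset 16, quantile normalization). Probes detected on at least 2 arrays were kept (14869 of 25697), and each gene took its kept probe with the highest mean. Probe names came from the platform annotation, with 23978 probes given 1 symbol and 1719 none. One model over 12 arrays with 6 residual and 5.82 prior degrees of freedom gave the F test, 13 pairwise comparisons and the difference of late-early changes, with Benjamini-Hochberg adjustment over 10144 genes and intervals at 95%. It was tested on simulated data with the fitted spread and 200 changed genes. The F test recovered 46.6% of 1.5-fold and 98.5% of 2-fold changes, with 4.78% of calls false. The comparison of elpNSCs-late with Control-NSC recovered 52.2% and 98.1%, and the difference of late-early changes 11.9% and 74.6%. Small differences can thus be missed. The simulation changed 200 of 10144 genes in elpNSCs-late alone, where 34.5% of genes were called in the F test of the data. Its rates need not hold for the data. The number of arrays limits the precision. Replicate arrays shared 0.292 to 0.638% of raw values exactly, and none was a repeat. The set, the other gene lists and the rule for naming genes were chosen with earlier results of these data known. The rule gave each array's value for up to 14 set genes called in the F test by the range of their group means, up to 6 called genes per pairwise comparison by size with any called against the majority or not called, and up to 3 called genes per other list. Further genes named with values (the remaining calls of a comparison, and Ifna1 and Ifnz) were chosen after their values were seen. Alternatives were the offset, no background correction, median scaling, the deposited log2 values, no or a stricter detection filter, every kept probe, an intensity trend with robust prior, only the arrays compared, the replicate block, and each array left out.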

Additional observations from a re-analysis of the deposited data

Results flagged for a closer look

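The early to late change of Ifitm2 differed between the lung and the limb line by 1.38 on the log2 scale in limma's test of the difference itself (95% interval 0.81 to 1.96, adjusted p = 9.39e-03). The adjusted p ran up to 0.046 over the 10 alternative settings. The log2 difference ran from 1.04 to 1.72 over these settings and the fits without 1 array.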

How the results depend on the processing

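Over 10 alternative settings, 1672 of 1760 values of the 176 called pairs of gene and comparison kept their direction and call, 87 lost the call and 1 reversed. With 1 array left out, 1991 of 2112 kept both and 121 lost the call. The reversed value was Ifitm1 in Control-NSC against Fibroblasts, at 0.12 (log2, adjusted p = 0.56) with no detection filter, where another probe of the gene, which fails that filter, was taken. Counts of called genes moved by over 1.5 times in 4 comparisons. The difference of late-early changes had 2 genes with median scaling, with the deposited log2 values and with detection p under 0.01, against 1. alpNSCs-early against Control-NSC had 6 without background correction and 6 with an intensity trend and robust prior, against 10. The lung line's late-early comparison had 0 with an offset of 50 and 0 without background correction, against 1, and the limb line's had 3 on the arrays compared alone, against 7. The cause was not tested. The size of the folds depends on the background correction: an alternative moved 86 of 117 called differences against Fibroblasts and 23 of 47 between neural groups by over 1.5 times, each under the deposited log2 values or without background correction. Median scaling moved the median of all genes to 0.15 in the limb line's late-early comparison and to -0.16 in the difference of changes.

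The counts against Fibroblasts below include the 6 genes kept only through those arrays. Leaving out 1 array gave 10 to 12 genes in the F test. Against Control-NSC it gave 4 to 6 for elpNSCs-early (4 without the first Control-NSC array), 4 to 10 for alpNSCs-early (4 without its second array), 6 to 8 for elpNSCs-late and 5 to 8 for alpNSCs-late. It gave 4 to 7 late against early in limb (4 without the first elpNSCs-early or the second elpNSCs-late array), 0 to 1 in lung (0 without the second alpNSCs-early array or either alpNSCs-late array), 2 to 3 lung against limb early, 4 to 6 late (4 without the first elpNSCs-late array), 1 to 2 for the difference of changes (2 without the second elpNSCs-early array), and against Fibroblasts 23 to 25 in Control-NSC, 22 to 22 in early limb, 23 to 24 in late limb, 23 to 23 in early lung and 23 to 24 in late lung.

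The labels number replicates 1 and 2 in every group, but deviations of equal numbers correlated above 0.1 in 10 of 15 group pairs (r = -0.15 to 0.24), so, with not every pair above 0.1, the numbers were not taken to pair the samples. A shared chip or run was not tested. With the replicate block, the F test called 12 genes. Against Control-NSC it called 7 in both limb groups, 9 in early lung and 7 in late lung, and of the calls made without it only 2 were lost, both of Usp18. Small differences of genes near background, such as Stat2, Usp18 and Igtp, are limited by signal over background.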
